A study of Danio rerio with 186 samples.

Results

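The cells described here are the pancreatic cells of zebrafish at 30 days post fertilization that were sorted as sst1.1+ or as ins+ and whose titles carry the number 4, read here as plate 4. Of 93 such cells, 85 had at least 500 detected genes and 50000 gene reads and were kept, 61 of 66 in the sst1.1+ gate and 24 of 27 in the ins+ gate, out of 186 cells in the series. Both gates came from fish with the transgenes Tg(ins:BB1.0L) together with TgBAC(sst1.1:memEGFP), with growth labelled normal. The pancreas was dissociated with enzymes, and full-length cDNA of each cell was made with Smart-Seq2 and read on an Illumina NextSeq. The labels name no animals, so each gate is 1 pool of cells, there is no replicate, and no test or p-value is given.

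Beta cells secrete insulin, which lowers blood glucose, and delta cells secrete somatostatin, which restrains the release of insulin and glucagon from neighbouring islet cells. Zebrafish carry several somatostatin genes, of which sst1.1 gives the name to 1 of the gates. Both cell types share a programme of endocrine transcription factors, secretory granules and prohormone convertases, and each adds factors of its own, such as Hhex in mouse delta cells and Nkx6 and Mnx1 factors in beta cells.

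The sst1.1+ pool held 34186971 gene reads, with 168889 to 895868 reads per cell and a median of 556705. The ins+ pool held 12550652 reads, with 372260 to 629710 per cell and a median of 536886. The sst1.1+ cells showed a median of 3617 detected genes (712 to 6525) and the ins+ cells a median of 2747.5 (1653 to 4601). The medians were 3151 and 2461 genes after each cell was thinned to 100000 reads, so the sst1.1+ cells had more detected genes at equal total reads. The reads left for other genes were not made equal: ins took a median of 37.5% of the reads in ins+ cells and sst1.1 25.5% in sst1.1+ cells. The gates also occupied different rows of the plate. The ins+ cells lay in rows A and B and the sst1.1+ cells in rows D to H, and row C alone held both, with 3 ins+ and 8 sst1.1+ kept cells. Outside row C, gate and row cannot be told apart. The ins+ gate was also sorted on plate 3, where 32 cells were kept.

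The gate genes followed the labels, which checks the sort and is not a finding. sst1.1 took over 5% of the reads in 59 of 61 sst1.1+ cells, with a median of 25.5% and a range of 0.106% to 50.9%. It passed 5% in 1 of 24 ins+ cells, where the median was 0.00386% and the highest value 19.4%. ins took 18.2% to 44.4% of the reads in the 24 ins+ cells and at most 1.05% in the sst1.1+ cells. EGFP had summed levels of 4019.7 CPM in sst1.1+ and 199 CPM in ins+ cells, where CPM is the number of reads of a gene per 1e+06 gene reads of the pool or cell. Low numbers of reads of the other gate's gene were general: at least 5 ins reads were found in all 61 sst1.1+ cells and at least 5 sst1.1 reads in 21 of 24 ins+ cells. Whether these are transcripts of the cells or reads carried between wells was not tested.

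Markers common to endocrine cells were read at similar summed levels, 8835 CPM in the sst1.1+ pool and 10636 CPM in the ins+ pool. Of these 9 markers 0 differed by 4-fold. Of all genes tested below, 10.9% were past 4-fold higher and 4.58% lower, so the 0 is not read as a result. The 4 endothelial markers found had 0 reads in both pools. Markers of acinar cells summed to 156 CPM in the sst1.1+ pool and 47.4 CPM in the ins+ pool. Of the sst1.1+ acinar reads, 87.9% came from 1 cell, which had 712 detected genes, 0.149% sst1.1 and 74.7% of its 333344 reads in a row named AC024175.4. Without it the acinar markers summed to 19.1 CPM. Ductal markers summed to 109 and 47.97 CPM, with medians over cells of 77.8 and 1.77 CPM, immune markers to 87.4 and 19.7 CPM with medians of 0 in both gates, and stromal markers to 29.6 and 1.59 CPM with medians of 1.37 and 1.80 CPM. Of their tested members anxa4, cd74a and acta2 were past 4-fold higher in the sst1.1+ pool, with at least 5 reads in 25, 12 and 1 of the 61 cells. The ductal marker anxa4 stood at 42.9 CPM in that pool, 3.74 CPM in the ins+ pool and 53.4 CPM in the ins+ pool of plate 3. Against plate 3 the log2 ratio was -0.31 for anxa4, 6.23 for cd74a and 3.77 for acta2. The part of these markers in the results was not tested.

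The gates were compared in 2 ways over the 7548 genes that reached 10 CPM in 1 of the pools or both. A gene is called past 4-fold by the log2 ratio of summed CPM, with 1 CPM added to each pool. It is called separated when the sst1.1+ cell had the higher CPM in at least 80%, or at most 20%, of all pairs of an sst1.1+ and an ins+ cell, with ties split equally. Intervals of ratios are exact conditional binomial intervals at 95% and cover counting error of the reads only, since the reads carry no molecular identifiers.

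By summed reads, 821 genes were at least 4-fold higher in the sst1.1+ pool (10.9% of the genes tested) and 346 were at least 4-fold lower (4.58%); without row A the counts were 1238 and 539. By single cells, 80 genes were separated with the sst1.1+ cells higher (1.06%) and 23 with the sst1.1+ cells lower (0.305%). Both measures held for 68 higher and 13 lower genes, gate genes included. The median log2 ratio of all tested genes was 0.04, and 60.5% of them lay within 2-fold. Most genes past 4-fold were therefore not separated cell by cell: 8.28% of the 4-fold higher genes and 3.76% of the 4-fold lower genes were.

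**Figure D1:**
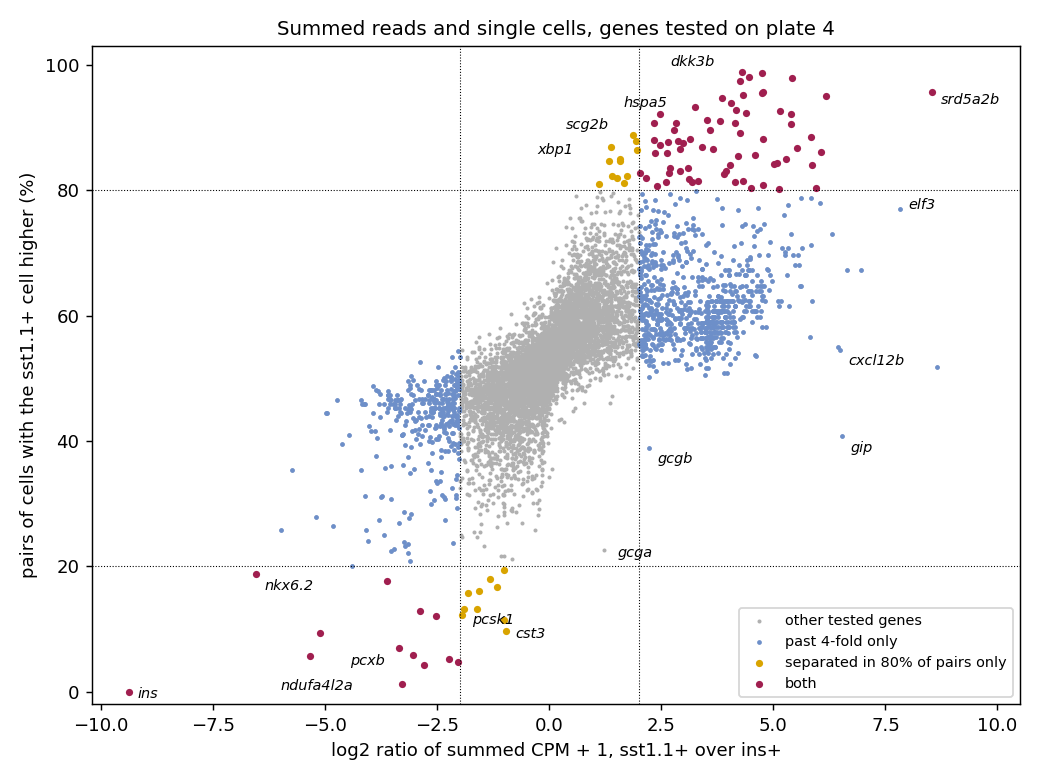
Each point is 1 of the 7548 tested genes, placed by the log2 ratio of summed CPM + 1 (sst1.1+ over ins+, x axis) and by the share of pairs of cells in which the sst1.1+ cell was higher (y axis, %); dotted lines mark 4-fold and 80% or 20% of pairs. Of the genes past 4-fold, 68 on the right and 13 on the left also reached the outer bands, while gip and gcgb lay right of the 4-fold line with under 50% of pairs.

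The repeat of the ins+ gate shows how far pools of like cells differed. Between the ins+ cells of plate 4 and of plate 3, 928 of 7169 genes differed by 4-fold in either direction (12.9%), while 1 gene was separated (0.0139%). That gene, zgc:158463, stood at 496.5 CPM on plate 4 and 812 CPM on plate 3, and the plate 4 cell was higher in 15.8% of pairs. A share of genes near that of the gate comparison thus passed 4-fold between pools sorted by the same gate, and separation of cells was rare between them.

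Single cells supplied many of the 4-fold calls. In 155 of the 346 lower genes, over 50% of the reads of the higher pool came from 1 cell, against 37 of the 821 higher genes. The higher pool had 24 cells for the lower genes and 61 cells for the higher genes, so these numbers cannot be compared directly. Leaving out 1 cell likewise takes a larger part of the ins+ pool. Without the highest cell of each pool, 807 of the higher genes and 237 of the lower genes were still past 4-fold, and the higher genes numbered 1468 in all. At least 5 reads in 50% or more of the cells of the higher pool were found for 135 higher and 42 lower genes. The named genes below are the 15 of each direction with the largest share of pairs among genes with at least 50 CPM, at least 5 reads in 50% of cells and a 4-fold ratio.

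Of the named genes higher in sst1.1+ cells, those with the highest shares of pairs, dkk3b and pyyb, encode secreted proteins. dkk3b encodes a secreted protein of the Dickkopf family, whose founding members antagonise Wnt signalling. It ranged from 9 to 13299 CPM over the sst1.1+ cells with a median of 5524, and from 0 to 2296 CPM over the ins+ cells with a median of 97.9. Of the 61 sst1.1+ cells, 58 lay above the highest ins+ cell. The summed levels were 5842 and 297 CPM, a ratio of 19.7 (19.04 to 20.3), and the sst1.1+ cell was higher in 98.8% of pairs. pyyb encodes a peptide of the neuropeptide Y family that is made by endocrine cells of the gut and pancreas. It ranged from 0 to 4966 CPM in sst1.1+ cells with a median of 1108, and from 0 to 560 CPM in ins+ cells with a median of 0. The groups overlapped in few cells, 54 sst1.1+ cells lying above the highest ins+ cell, and the summed ratio was 22.1 (20.6 to 23.7).

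Several genes were read in nearly all sst1.1+ cells and in almost no ins+ cell. srd5a2b encodes a steroid 5-alpha-reductase. It ranged from 0 to 1833 CPM in sst1.1+ cells with a median of 332, and 1 read was found in the whole ins+ pool. At least 5 reads were present in 53 of 61 sst1.1+ cells and in 0 of 24 ins+ cells. A count of 0 allows up to 12.5% of cells with that many reads by a floor of 3 cells, or 14.2% by the Clopper-Pearson limit. The summed levels were 399 and 0.0797 CPM, a ratio of 5009 with a counting interval of 899 to 1.98e+05. The ins+ pool of plate 3 held 12.6 CPM of srd5a2b, more than that of plate 4 and below every sst1.1+ row, which ranged from 328 to 515 CPM. cpne4a, a calcium-dependent phospholipid-binding protein of the copine family, had a median of 208 CPM in sst1.1+ cells (0 to 819) and 0 in ins+ cells (0 to 181). It had at least 5 reads in 56 sst1.1+ cells and 1 ins+ cell, and the summed ratio was 30.4 (25.01 to 37.4). itga6b, the integrin alpha-6 subunit of laminin receptors, had a median of 253 CPM in sst1.1+ cells (0 to 1074) and of 0 in ins+ cells (0 to 274), with at least 5 reads in 57 and 1 cells. Its summed ratio was 28.97 (24.7 to 34.2). In both genes the single ins+ cell was the same one, described further on. Without the top cells the log2 ratio was 7.89 in place of 4.76 for cpne4a and 8.41 in place of 4.75 for itga6b.

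Transcription factors stood on both sides. HHEX, the homeobox gene that mouse delta cells need, had a median of 49.4 CPM in sst1.1+ cells (0 to 353) and 0 in ins+ cells (0 to 21.5). It was found with at least 5 reads in 49 of 61 sst1.1+ cells and in 1 of 24 ins+ cells, and the summed levels were 68.0 and 0.956 CPM, a ratio of 71.1 (40.6 to 138). pbx3b, a homeobox gene of the Pbx family of Hox cofactors, had medians of 181 CPM (0 to 754) and 0 (0 to 257) and a ratio of 12.1 (10.6 to 13.9). pbxip1b, which encodes a Pbx-interacting protein, had medians of 283 CPM (0 to 898) and 0 (0 to 243) and a ratio of 17.6 (15.3 to 20.3). A Pbx family member and a Pbx-binding protein were thus both read in most sst1.1+ cells and in 3 and 4 ins+ cells respectively. nkx6.2, a homeobox gene of the Nkx6 family, was the reverse: it had 0 reads in all 61 sst1.1+ cells and at least 5 reads in 15 of 24 ins+ cells. A count of 0 allows up to 4.92% of sst1.1+ cells with at least 5 reads by the same floor, or 5.87% by the Clopper-Pearson limit. Its ins+ cells ranged from 0 to 386 CPM with a median of 31.1. Set against 3 reads in the whole pool, the floor used here, it was 1056-fold lower in the sst1.1+ pool. Folds against the floor cover counting error of the reads only and are not lower limits for the gates. Single ins+ cells weighed on the sums of the factors above. Without the top cell of each pool the log2 ratio was 6.01 in place of 5.14 for HHEX, 4.40 in place of 3.53 for pbx3b and 5.34 in place of 4.06 for pbxip1b. mnx1, a homeobox gene of motor neurons and beta cells, stood at 3.86 and 79.6 CPM and was found in 5 sst1.1+ and 13 ins+ cells.

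Of the 27 islet transcription factors tested, 4 were past 4-fold higher (14.8%, near the 10.9% of all tested genes) and 3 lower (11.1%, beside 4.58%). Separated were 2 higher (7.41%, beside 1.06%) and 1 lower (3.70%, beside 0.305%). elf3, an epithelial Ets factor, had 0 reads in the ins+ pool and 225 CPM in the sst1.1+ pool, 941-fold higher against the floor. It was not general: 33 of 61 sst1.1+ cells had at least 5 reads, the median was 56.9 CPM and the highest cell 1648 CPM, and 77.0% of pairs were in its direction. sox11a stood at 47.8 and 3.35 CPM, a log2 ratio of 3.49 that was 4.32 without the top cells. pdx1, the homeobox gene that pancreatic development depends on, was read at nearly equal levels, 1335 and 1438 CPM, with medians of 1243 CPM (0 to 3952) in sst1.1+ and 1148 CPM (481 to 2906) in ins+ cells. neurod1, a basic helix-loop-helix factor of endocrine cells, stood at 234.5 and 425 CPM and its ranges overlapped. insm1b, a zinc-finger endocrine factor, was 12.5-fold higher in the ins+ pool (11.1 to 14.1), while its paralogue insm1a stood at 170 and 144 CPM. pou2f2a, an octamer-binding factor, was 9.76-fold higher in the ins+ pool (8.38 to 11.4), although its median over sst1.1+ cells was 0 CPM and over ins+ cells 35.02 CPM.

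**Figure D2:**
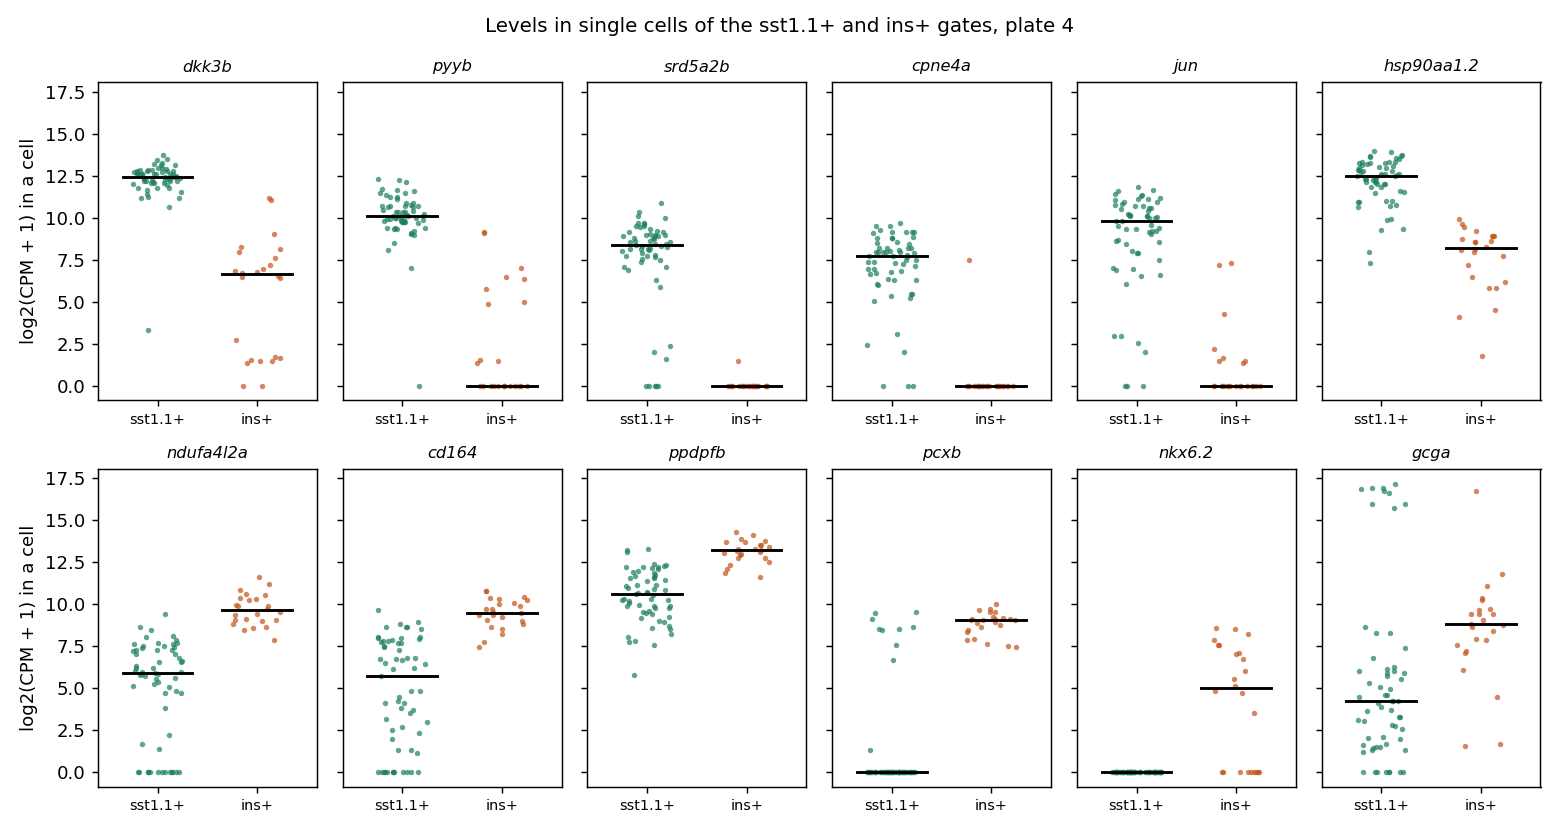
Each point is 1 cell, placed by log2(CPM + 1) of the gene named above the panel (y axis) in the sst1.1+ gate (61 cells) and the ins+ gate (24 cells); horizontal jitter is for display and black lines are medians. dkk3b and srd5a2b were high in most sst1.1+ cells, pcxb was at 0 in most sst1.1+ cells and present in 9 of them, and gcga split the sst1.1+ cells into 9 very high cells and 52 low ones.

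The genes higher in ins+ cells were led by ndufa4l2a, which encodes a relative of a respiratory chain subunit. It ranged from 236 to 3119 CPM over the ins+ cells with a median of 802, and from 0 to 679 CPM over the sst1.1+ cells with a median of 58.5. Of the 24 ins+ cells, 13 lay above the highest sst1.1+ cell, and the ins+ cell was higher in 98.7% of pairs. The summed levels were 992 and 101 CPM, 9.85-fold higher in the ins+ pool (9.49 to 10.2). A related gene, ndufa4l, went the other way, with 337 CPM in the sst1.1+ pool, 129 CPM in the ins+ pool and 86.8% of pairs higher in the sst1.1+ cell. cd164, a sialomucin of the cell surface and endosomes, had medians of 730.4 CPM (173 to 1800.1) in ins+ cells and 52.9 CPM (0 to 808) in sst1.1+ cells and was 6.98-fold higher in the ins+ pool (6.73 to 7.24). ppdpfb was among the most abundant of these genes, with medians of 9549 CPM (3120 to 19975) in ins+ cells and 1560 CPM (54 to 10231) in sst1.1+ cells. Its fold was 4.12 (4.08 to 4.16). gpx3, an extracellular glutathione peroxidase, had medians of 469 CPM (307 to 1764) and 104 CPM (0 to 876) and a fold of 4.73 (4.56 to 4.89). ndufa4l2a, cd164, ppdpfb and gpx3 each had at least 5 reads in all 24 ins+ cells and in 45, 41, 61 and 46 sst1.1+ cells, so they differed mainly in level.

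Other genes higher in ins+ cells were missing from most sst1.1+ cells. pcxb encodes pyruvate carboxylase, which replenishes oxaloacetate in mitochondria. It had at least 5 reads in 24 of 24 ins+ cells, with a median of 531 CPM (172 to 1032), and in 9 of 61 sst1.1+ cells, with a median of 0 (0 to 733). The summed fold was 8.41 (7.997 to 8.84). abhd15a, of the alpha/beta-hydrolase family, was found in 22 ins+ and 5 sst1.1+ cells, had a median of 311 CPM in ins+ cells (0 to 763) and was 46.8-fold higher in the ins+ pool (40.7 to 54.1). rab3c, a small GTPase of secretory vesicles, was found in 19 ins+ and 2 sst1.1+ cells, 1 of which held 81.5% of its sst1.1+ reads, had a median of 106 CPM in ins+ cells (0 to 304) and was 52.8-fold higher (41.1 to 68.8). dgkaa, a diacylglycerol kinase, was found in 16 and 4 cells and was 25.4-fold higher (21.6 to 29.9). These genes differed mainly in how many cells held them. SNCG (2 of 2), a gamma-synuclein gene, was found in 22 ins+ and 19 sst1.1+ cells and had summed levels of 321 and 30.6 CPM. rgs8 and rcan2, which encode a regulator of G-protein signalling and an inhibitor of calcineurin, were 5.91-fold (5.53 to 6.31) and 13.6-fold (12.1 to 15.4) higher in the ins+ pool. kalrnb was 9.66-fold higher (8.57 to 10.9), with 22.2% of pairs higher in the sst1.1+ cell. Without the top cells the log2 ratio was -6.06 in place of -5.13 for rab3c and -3.79 in place of -3.15 for kalrnb.

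Stress-response genes were higher in the sst1.1+ cells, in 3 lists. Of 49 cytosolic heat-shock genes tested, 20 were past 4-fold higher (40.8%, beside 10.9% of all tested genes) and 0 lower. Separated higher were 11 (22.45%, beside 1.06% of all tested genes), and the list's median log2 ratio was 1.53. hsp90aa1.2 encodes a cytosolic HSP90 chaperone. It had a median of 5772 CPM in sst1.1+ cells (154 to 15780) and 292 CPM in ins+ cells (2.34 to 986), and 55 sst1.1+ cells lay above the highest ins+ cell. The summed ratio was 19.2 (18.6 to 19.8). hspa4a, a nucleotide exchange factor of HSP70, had medians of 484 CPM (0 to 2318) and 11.4 CPM (0 to 211) and a ratio of 21.7 (19.6 to 24.1). DNAJA4, a co-chaperone of HSP70, had medians of 384 CPM (0 to 1826) and 0 (0 to 303) and a ratio of 18.4 (16.6 to 20.5), or a log2 ratio of 4.16 that was 4.93 without the top cells. hsp70.3 had medians of 2149.5 CPM (2.44 to 5610) and 353 CPM (0 to 1582) and a ratio of 5.54 (5.38 to 5.70). The values of hsp70.3, hsp90aa1.1 and hsp90aa1.2 are uncertain, because these genes have near-identical neighbours with which reads may be shared; hsp90aa1.1 stood at 62.3 and 3.35 CPM.

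Of 48 immediate-early and AP-1 genes tested, 20 were past 4-fold higher (41.7%, beside 10.9% of all tested genes) and 0 lower. Separated higher were 9 (18.75%, beside 1.06% of all tested genes), and the list median was 1.49 on the log2 scale. jun, an AP-1 subunit, had a median of 884 CPM in sst1.1+ cells (0 to 3560) and 0 in ins+ cells (0 to 156). It was found with at least 5 reads in 54 of 61 sst1.1+ and 3 of 24 ins+ cells, and the summed levels were 1063 and 13.7 CPM, a ratio of 77.6 (66.8 to 90.7). atf3, a stress-inducible bZIP factor, stood at 880.1 and 14.3 CPM with medians of 496 CPM (0 to 3624) and 0 (0 to 168), and jund at 171 and 5.26 CPM. pim1, a serine/threonine kinase, stood at 244 and 31.4 CPM, and the ins+ pool of plate 3 held 78.1 CPM of it. Of the jund ins+ reads 87.9% came from 1 cell. Without the top cells the log2 ratio was 6.61 in place of 4.78 for jund, 6.93 in place of 6.18 for jun, 6.67 in place of 5.85 for atf3 and 3.65 in place of 2.92 for pim1. All of these genes had at least 5 reads in 45 to 54 sst1.1+ cells and in 1 to 4 ins+ cells.

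Of 44 genes of ER chaperones and the unfolded-protein response tested, 11 were past 4-fold higher (25%) and 1 lower (2.27%). Separated higher were 4 (9.09%), and the median log2 ratio was 1.04. Of all tested genes 10.9% were past 4-fold higher, 4.58% lower and 1.06% separated higher. The lower gene of the list, wfs1b, an ER membrane protein at 2.43 and 13.7 CPM, took the other direction without row B, where its log2 ratio was 1.26. hspa5 encodes BiP, the HSP70 chaperone of the ER. It had a median of 1871 CPM in sst1.1+ cells (18.7 to 10225) and 136 CPM in ins+ cells (4.39 to 876), 48 sst1.1+ cells lay above the highest ins+ cell, and the ratio was 9.61 (9.28 to 9.95). hsp90b1, the HSP90 chaperone of the ER, stood at 701.5 and 136 CPM, a ratio of 5.17 (4.92 to 5.43), and ppp1r15a, the stress-induced subunit of the eIF2-alpha phosphatase, at 552 and 68.7 CPM, a ratio of 8.04 (7.51 to 8.62). xbp1, a transcription factor of the unfolded-protein response, was separated in 84.7% of pairs at a ratio of 2.53 (2.42 to 2.65). Of 75 genes of ER translocation and early secretory transport, 3 were past 4-fold higher (4%), 1 lower (1.33%) and 0 separated. Their median log2 ratio was 0.30, with 56 members above 50% of pairs. Of 50 proteasome subunits, 1 was past 4-fold higher (2%), with a median of 0.44 and 40 members above 50% of pairs. The higher shares of both lists were below the 10.9% of all tested genes. Over all tested genes the median share of pairs was 53.48%, so most of them lay above 50% as well. The numbers of members above 50% of pairs are therefore not read as a shift of these lists. The difference between these lists and the ER chaperones was not tested.

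Summed per cell, the 3 lists showed the same order. The cytosolic heat-shock genes together took 2151 to 65260 CPM in sst1.1+ cells with a median of 27930, and 3885 to 21050 CPM in ins+ cells with a median of 6385. The ranges overlapped, and 41 sst1.1+ cells lay above the highest ins+ cell. The immediate-early genes took medians of 8523 CPM (75 to 22730) and 3800 CPM (1906 to 7574), with 36 cells above. The ER genes took 7561 CPM (138 to 21570) and 3080 CPM (1547 to 5501), with 44 cells above. The sums of all sst1.1+ rows (C to H) exceeded those of all ins+ rows (A to C), and only row C held both gates. They were 24830 to 35830 against 5706 to 8234 CPM for heat shock and 7850 to 10380 against 3852 to 4266 CPM for immediate-early genes. For ER genes they were 7730 to 9485 against 2696 to 3649 CPM. That order of rows was not particular to the 3 lists. ER translocation and early secretory transport showed it too (6792 to 7703 against 5381 to 6302 CPM). So did receptors, proteasome subunits, nuclear respiratory chain genes, cell adhesion and growth factors. Other lists had the opposite order, such as the TCA cycle (2149 to 2604 against 2708 to 3133 CPM). Of the 80 separated higher genes 24 belonged to the 3 stress lists and 56 did not, and of the 23 separated lower genes 0 did. The lists held 49, 48 and 44 of the 7548 tested genes, so the 0 is not read as a result. Dissociation and sorting were labelled alike for both gates, and the part of handling in these values was not tested.

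**Figure D3:**
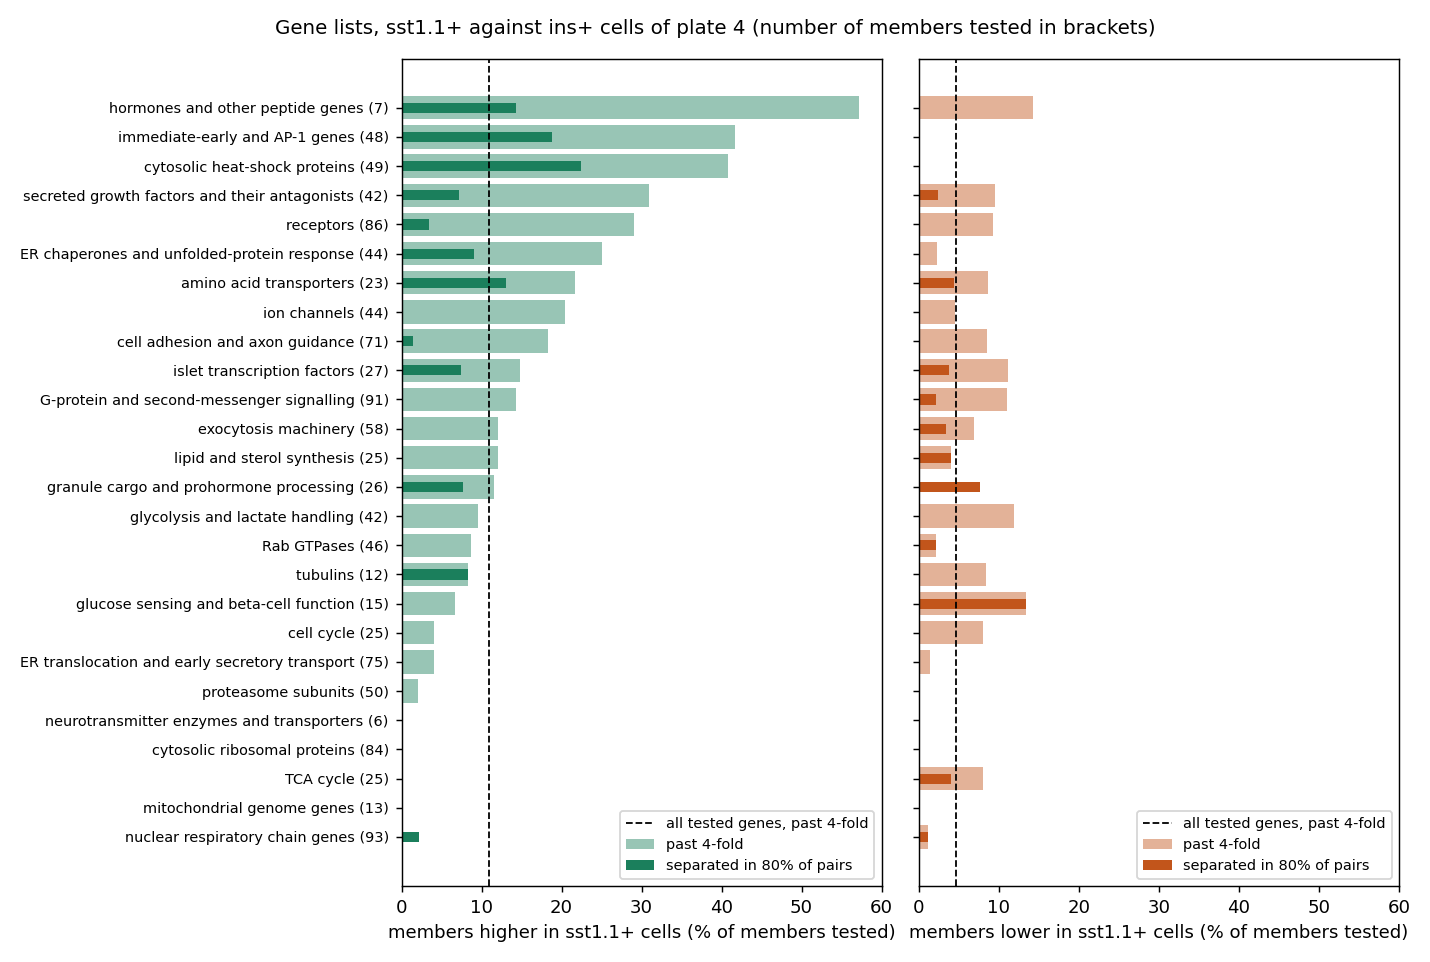
Bars give, for 26 gene lists, the share of tested members that were higher (left) or lower (right) in sst1.1+ cells, past 4-fold (pale, wide) or separated in 80% of pairs (dark, narrow); the x axes are percent and dashed lines mark 10.9% and 4.58%, the shares of all tested genes past 4-fold. Heat-shock and immediate-early genes reached 40.8% and 41.7% higher with 0 lower, while ribosomal and mitochondrially encoded genes had 0 in both directions.

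Hormone and granule genes differed in a few members. sst1.2, a second somatostatin gene, had a median of 12673 CPM in sst1.1+ cells (lowest 90) and 18.97 CPM in ins+ cells (highest 11366), and the ratio was 42.9 (41.9 to 43.96). Of its ins+ reads 91.4% came from 1 cell, and the ins+ pool of plate 3 held 8582 CPM of sst1.2, against which the log2 ratio was 1.47 in place of 5.42. sst2, in contrast, took over 5% of the reads in 3 sst1.1+ cells, where it reached 13.8%, and its medians were 12.7 and 12.9 CPM; its summed ratio of 429 (372 to 498) thus came from a minority of cells, and the ins+ pool of plate 3 held 5281 CPM. Among 26 genes of granule cargo and prohormone processing, 3 were past 4-fold higher (11.5%, near the 10.9% of all tested genes) and 0 lower (beside 4.58%). In each direction 2 were separated (7.69%, beside 1.06% higher and 0.305% lower). The granins scg2b (1767 and 486 CPM, 88.8% of pairs) and chga (554 and 211 CPM, 82.2%) were separated higher. scg5, the chaperone of prohormone convertase 2, was separated lower (109.7 and 221 CPM, 11.4%), as was pcsk1, prohormone convertase 1. pcsk1 had medians of 189 CPM (0 to 1474) in sst1.1+ cells and 1251 CPM (106 to 2745) in ins+ cells and was 3.78-fold higher in the ins+ pool (3.69 to 3.87). pcsk2, prohormone convertase 2, stood at 545 and 567 CPM, so the convertases were not in the same proportion in the gates. VGF, another granin-like protein, stood at 89.0 and 8.68 CPM, a log2 ratio of 3.22 that was 3.97 without the top cell of each pool. ucn3l, the urocortin 3 gene that marks mature mouse beta cells, had 49.03 and 12.8 CPM in the sst1.1+ and ins+ pools and was found in 24 and 5 cells. calca, of the calcitonin family, stood at 17.7 and 693 CPM, and 54.7% of its ins+ reads came from 1 cell; the ins+ pool of plate 3 held 84.5 CPM.

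Among 15 genes of glucose sensing and beta-cell function, 1 was past 4-fold higher (6.67%) and 2 lower (13.3%), and 2 were separated lower (13.3%). The shares of all tested genes were 10.9%, 4.58% and 0.305%. gck, glucokinase, was read alike, with 888 and 729 CPM and medians of 841 CPM (0 to 1945) and 726 CPM (212 to 1435). g6pcb, a glucose-6-phosphatase subunit, stood at 91.2 and 284 CPM. gcgra, a glucagon receptor, had summed levels of 0.176 CPM in sst1.1+ and 73.6 CPM in ins+ cells, 419-fold higher (192 to 1146). It had at least 5 reads in 12 of 24 cells of the ins+ gate and in 1 of 61 of the other gate.

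Receptors contributed 25 of 86 tested members past 4-fold higher and 8 lower, 29.1% and 9.30% beside 10.9% and 4.58% of all tested genes, and 3 separated higher (3.49% beside 1.06%). The 3 are gfra1a and GFRA1 (1 of 3), GDNF-family co-receptors, and npr1a, a natriuretic peptide receptor. gfra1a had a median of 67.3 CPM in sst1.1+ cells (0 to 641) and 0 in ins+ cells (0 to 37.6) and a ratio of 66.6 (43.5 to 108). GFRA1 (1 of 3) stood at 21.8 CPM and had 0 reads in the ins+ pool, 91.3-fold higher against the floor, and npr1a stood at 61.2 and 1.27 CPM. All ins+ reads of gfra1a came from 1 cell, as did those of npr1a, and without the top cells the log2 ratio was 6.68 in place of 5.39 and 5.86 in place of 4.77. Receptors lower in the sst1.1+ pool included HRH2, a histamine receptor, at 8.86 and 91.1 CPM, and vipr2, a receptor for vasoactive intestinal peptide, at 21.5 and 101 CPM; neither was separated. s1pr1, a sphingosine-1-phosphate receptor, stood at 122.8 CPM with 0 ins+ reads, 514-fold higher against the floor, and was found in 21 of 61 sst1.1+ cells.

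Secreted growth factors and their antagonists showed 13 of 42 members past 4-fold higher (30.95%, beside 10.9% of all tested genes) and 4 lower (9.52%, beside 4.58%). Of the members 3 were separated higher (7.14%, beside 1.06%) and 1 lower (2.38%, beside 0.305%). Summed per cell they took 81 to 17620 CPM in sst1.1+ cells with a median of 7834, and 1211 to 4720 CPM in ins+ cells with a median of 2601. In the sst1.1+ pool dkk3b made up 5842 of the list's 8222 CPM. bdnf, a neurotrophin, had medians of 93.5 CPM (0 to 844) and 0 (0 to 109) and a ratio of 13.7 (11.5 to 16.5), or a log2 ratio of 3.65 that was 4.32 without the top cells, and mfge8b, a secreted glycoprotein that binds phosphatidylserine, stood at 171 and 25.7 CPM. vegfab, a vascular endothelial growth factor, was separated lower, with medians of 131 CPM (0 to 512) in sst1.1+ cells and 411 CPM (45.6 to 1397) in ins+ cells. cxcl14, a chemokine, and nell2a, a secreted neural factor, were 9.93-fold (9.08 to 10.9) and 14.7-fold (12.7 to 16.9) higher in the ins+ pool.

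Of 23 amino acid transporters tested, 5 were past 4-fold higher (21.7%, beside 10.9% of all tested genes) and 2 lower (8.70%, beside 4.58%), and 3 and 1 were separated. slc38a2, a sodium-coupled neutral amino acid transporter, had medians of 202 CPM (0 to 953) and 0 (0 to 174) and a ratio of 12.6 (11.1 to 14.4). slc38a3b and slc7a14a had ratios of 9.45 (8.04 to 11.2) and 23.7 (17.5 to 32.9). slc43a2b, a large neutral amino acid transporter, was separated lower, with medians of 159 CPM (0 to 1137) and 646 CPM (0 to 1503), and slc38a11 stood at 11.6 and 118 CPM. The named transporters thus lay on both sides.

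In the remaining lists at most 2 members were separated in a direction. Of all tested genes 10.9% were past 4-fold higher and 4.58% lower, and 1.06% were separated higher and 0.305% lower. Of 58 genes of exocytosis, 7 (12.1%) were past 4-fold higher and 4 (6.90%) lower. Separated lower were 2 (3.45%), rab3c and rims2a, a scaffold of the active zone at 516 and 1045 CPM. Past 4-fold were 9 higher (20.5%) and 2 lower (4.55%) of 44 ion channels, and 13 (18.3%) and 6 (8.45%) of 71 genes of cell adhesion and axon guidance. G-protein and second-messenger signalling had 13 (14.3%) and 10 (10.99%) of 91. Rab GTPases, with 4 and 1 of 46, and lipid and sterol synthesis, with 3 and 1 of 25, were near the shares of all genes. Glycolysis and lactate handling had 4 higher and 5 lower of 42, and the TCA cycle 0 and 2 of 25. Nuclear respiratory chain genes had 0 higher and 1 lower of 93, with 2 separated higher (2.15%) and 1 lower (1.08%). Of 84 cytosolic ribosomal protein genes, 13 genes of the mitochondrial genome and 6 of neurotransmitter enzymes and transporters, 0 were past 4-fold. Tubulins had 1 and 1 of 12, with tubb4b separated at 456 and 153 CPM. Cell-cycle genes had 1 higher and 2 lower of 25 and a median log2 ratio of -1.005, beside a median of 1.496 between the ins+ pools of plates 4 and 3, so the ins+ gate differed from itself by more. Of the 7 peptide genes tested beside the islet hormones, pyyb, VGF, pdyn and gip were past 4-fold higher and calca was lower.

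Genes outside the naming rule, chosen after their values were seen, show 2 further patterns. Of the 226 tested genes with 0 reads in the ins+ pool, 5 had at least 5 reads in 50% or more of the sst1.1+ cells: bcam, elf3, GFRA1 (1 of 3), fam46bb and a gene known by a clone name. bcam, a laminin-binding adhesion molecule, had at least 5 reads in 42 of 61 sst1.1+ cells and stood at 65.5 CPM, 274-fold higher against the floor. The ins+ pool of plate 3, however, held 1.63 CPM of bcam. Of the 14 tested genes with 0 reads in the sst1.1+ pool, nkx6.2 alone had at least 5 reads in 50% of the ins+ cells. The numbers 226 and 14, both out of 7548 tested genes, cannot be compared directly because the pools differed in size. The ins+ pool held 12550652 reads of 24 cells and the sst1.1+ pool 34186971 reads of 61 cells. Other genes were separated at a modest ratio of sums. cst3, a cysteine protease inhibitor, ranged from 925 to 3128 CPM in ins+ cells with a median of 2095 and from 3 to 2151 CPM in sst1.1+ cells with a median of 975, a 1.94-fold difference of sums with 9.63% of pairs higher in the sst1.1+ cell. cd63, a tetraspanin of endosomes, stood at 681 and 177 CPM with 87.8% of pairs, and wif1, a secreted Wnt inhibitor, at 535.5 and 161 CPM with 82.2%.

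Plate rows share a gate by design and are not replicates, and their cells are those that chose the separated genes, so values by row are a description. Over all tested genes, every sst1.1+ row lay above every ins+ row for 614 genes (8.13%) and below for 258 (3.42%). Row C, the row with both gates, had 3 ins+ cells, and the median log2 ratio of all tested genes there was 1.04. In row C dkk3b stood at 6095 CPM in the sst1.1+ cells and 97.3 CPM in the ins+ cells, jun at 1077 and 0 CPM, ndufa4l2a at 76.6 and 1353 CPM and pcxb at 79.8 and 755 CPM. The row sums of dkk3b lay at 5574 to 6095 CPM in the sst1.1+ rows and 96.0 to 556 CPM in the ins+ rows, those of jun at 593 to 1322 and 0 to 28.4 CPM, and those of ndufa4l2a at 76.6 to 174 and 795 to 1353 CPM. After thinning each cell to 100000 reads, 72 of the 80 and 21 of the 23 separated genes were still separated. Against the summed ins+ reads of plate 3, 59 of the 80 and 12 of the 23 were past 4-fold, beside 68 and 13 against plate 4. The sst1.1+ cells in both ratios are those that chose these genes, so the plate 3 values are no separate check of the sst1.1+ side.

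**Figure D4:**
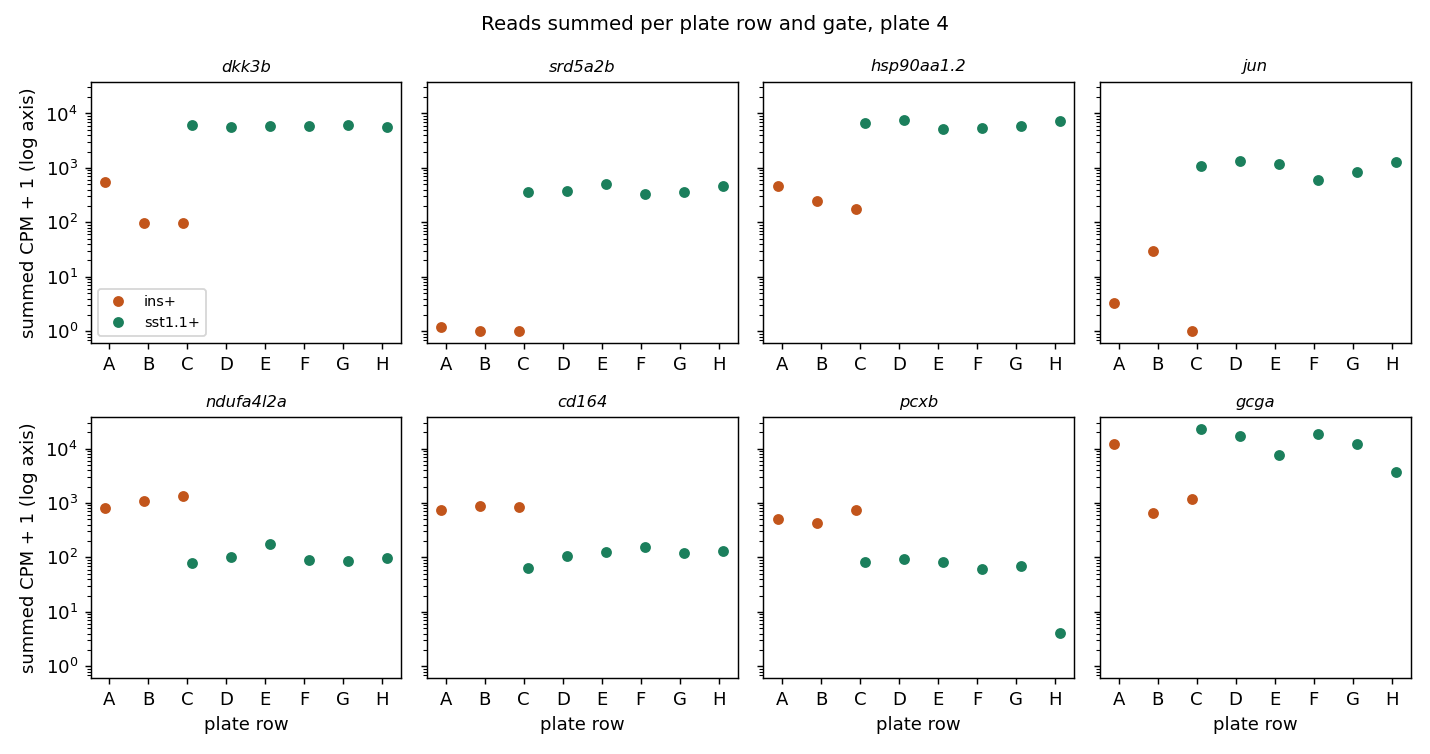
Points are reads summed over the cells of 1 gate in 1 plate row, as CPM + 1 on a log axis, against plate row A to H, for 8 genes; ins+ cells lie in rows A to C and sst1.1+ cells in rows C to H. In the panels of dkk3b, srd5a2b, hsp90aa1.2, jun, ndufa4l2a, cd164 and pcxb, genes that the same cells chose, the gates did not overlap. For gcga the ins+ sum of row A, 12074 CPM, lay within the range of the sst1.1+ rows. Over all tested genes the rows did not overlap for 8.13% (sst1.1+ higher) and 3.42% (sst1.1+ lower).

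Pools and cells disagreed for the glucagon genes. gcga, which encodes glucagon, the hormone of alpha cells, had 13244 CPM in the summed sst1.1+ reads and 5711 CPM in the summed ins+ reads, but its median over cells was 17.8 CPM in sst1.1+ and 447 CPM in ins+ cells, and the sst1.1+ cell was higher in 22.5% of pairs. gcgb likewise stood at 12989 and 2784 CPM with 38.9% of pairs. gip stood at 2894 and 30.3 CPM with 40.8% of pairs, and 99.1% of its sst1.1+ reads came from 1 cell; without the top cells its log2 ratio was -0.05. The sst1.1+ sum of gcga came from 9 cells in which it took 5.43% to 14.96% of the reads; in the other 52 it took at most 0.0396%. Of the 9 cells, 8 had over 5% sst1.1 as well, with a median of 11.8% against 26.4% in the others.

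These 9 cells also held most sst1.1+ reads of several ins+ genes. They supplied 13.3% of all sst1.1+ reads, but 99.95% of the pcxb reads, 99.7% of the kalrnb reads, 99.5% of the abhd15a reads, 95.3% of the dgkaa reads and 81.6% of the insm1b reads. All 9 sst1.1+ cells with pcxb, all 8 with kalrnb, all 5 with abhd15a and all 4 with dgkaa were among them. By contrast they held 7.02% of the cd164 reads and 5.69% of the ndufa4l2a reads, and 0 of the 2 cells with rab3c. Of the 15 genes named as higher in ins+ cells, at least 5 reads were found for 8 to 12 in these 9 cells (median 9) and for 1 to 7 in the other 52 (median 4). Of the 15 genes named as higher in sst1.1+ cells they held 8 to 15 (median 13), against 5 to 15 (median 14.5). Their ins reads stayed at or below 0.202%. Detected genes were a median of 4421 in the 9 and 3480.5 in the others, and no doublet caller was run, so whether a well held more than 1 cell was not tested.

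**Figure D5:**
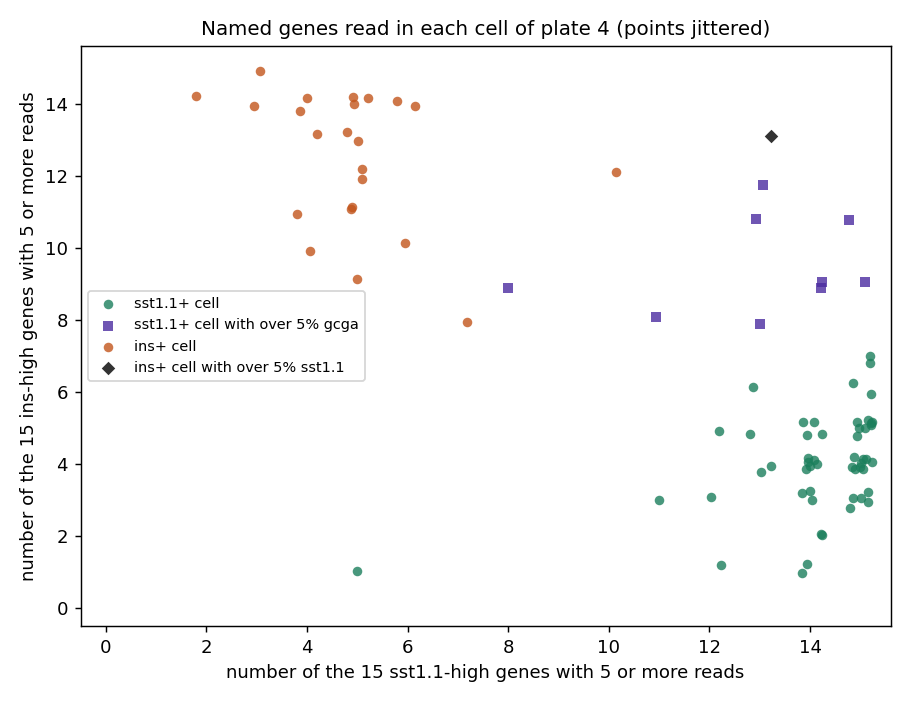
Each point is 1 of the 85 cells, placed by how many of the 15 genes named as higher in sst1.1+ cells (x axis) and of the 15 named as higher in ins+ cells (y axis) had at least 5 reads in it; points are jittered. The gates lie apart because the genes were chosen for that. The 9 sst1.1+ cells with over 5% gcga sit at 8 to 12 of the ins+ genes, and the ins+ cell with over 5% sst1.1 sits at 13 and 13.

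The ins+ gate held 1 cell with both hormones. This cell, in row A with 558854 reads and 4601 detected genes, had 18.2% ins and 19.4% sst1.1. At least 5 reads were found in it for 13 of the 15 genes higher in sst1.1+ cells and 13 of the 15 genes higher in ins+ cells. The other 23 ins+ cells held 2 to 10 (median 5) and 8 to 15 (median 13). It was the sole ins+ cell with reads of cpne4a, itga6b and HHEX, and the highest ins+ cell for 17 of the 80 separated higher genes. The 17 include sst1.1, by which the cell was picked, and sst1.2, and the number over all tested genes was not counted. The cell also had the most detected genes of the ins+ cells. Its cpne4a level of 181 CPM lay below 32 of the 61 sst1.1+ cells and its itga6b level of 274 CPM below 29 of them. srd5a2b had 0 reads in it. Without this cell the ins+ pool held 204 CPM of dkk3b, 44.03 CPM of pyyb and 5.75 CPM of pbxip1b, and 0 of cpne4a, itga6b and HHEX. A further ins+ cell had 11.1% gcga and 18.4% ins, with 10 of the 15 sst1.1+ genes and 12 of the 15 ins+ genes.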

How the data were processed

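Trim Galore, HISAT2 with GRCz11 and featureCounts are the trimming, alignment and counting tools and build listed per the submitters' processing notes; versions, annotation release and strandedness were not given in the sources used here. Raw counts per gene and cell were deposited in 1 table of 32046 rows, of which 92 spike-in rows were kept out of totals and comparisons. Each column was matched to a cell by its library name. Gate, plate and row come from the titles. Kept cells were summed per gate and scaled to CPM. Levels carry exact Poisson intervals in the tables and shares of cells Clopper-Pearson intervals at 95%; a pool at 0 was set against a floor of 3 reads. Cells and rows were not treated as replicates, and no doublet caller was run. All 85 cells had distinct counts.

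The genes named are the 15 of each direction described in the report, up to 4 per direction of each list past 4-fold or separated, core genes of the lists, and the 5 per direction whose ratio shrank most without the top cell. The members and the 26 lists were chosen with earlier results of these data known. Of 410 symbols listed by name, 380 matched directly, 11 by gene identifier and 19 were not found. The planned search of promoters for motifs was not run, and sequences were not used here. Calculations were tested on simulated Poisson counts whose cells differed in depth only within a gate, which checks the arithmetic and not the variation between real cells. Python 3.11.15, numpy 2.4.6, scipy 1.17.1, pandas 2.3.3, R 4.3.3 and edgeR 4.0.16 (TMM factors as an alternative scaling only) were used.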

Additional observations from a re-analysis of the deposited data

How the results depend on the processing

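The counts of separated genes were recomputed under part of the 19 alternatives. They left a 1.5-fold range with row C alone, where they were 689 higher and 263 lower, and with 90% in place of 80% of pairs, where they were 24 and 10. The counts past 4-fold, 821 higher and 346 lower, moved more. They were 416 and 80 with the mean of log2(CPM + 1) over cells, 3327 and 1214 in row C alone, 518 and 182 with plate 3 added to the ins+ cells, 351 and 106 with 5 CPM added, 156 and 57 at a minimum of 50 CPM, 1889 and 614 with no gene filter, and 1686 and 1292 at 2-fold. Lower genes numbered 626 with totals without hormone genes, and higher genes 1468 without the top cell of each pool. Leaving out 1 plate row at a time gave 806 to 1238 higher and 373 to 539 lower genes past 4-fold, both highest without row A, and 77 to 104 and 22 to 31 separated genes. Higher genes were 70.4% of those past 4-fold, but 83.9% with the mean of logs, 84.9% without the top cells and 56.6% at 2-fold. The median log2 ratio of all tested genes moved to -0.12 without hormone genes in the total, 0.35 with the mean of logs, 0.34 without the top cells, 0.20 with no gene filter, 0.13 without cells of another hormone and 0.11 with both ins+ plates.

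Sign changes were listed only for those of the 168 named genes that were past 4-fold in the main comparison. The log2 ratios that changed sign follow, and the cause was not tested. With 1000 genes and 100000 reads per cell, as without the 1 sst1.1+ cell under 1500 genes (an alternative chosen after seeing the data), ela2l was -0.69 and prss59.2 -0.89. Without cells of another hormone gcgb was -4.44, gip -0.25, ela2l -0.61 and prss59.2 -1.05, and with the mean of logs gcgb was -0.80. In row C alone camk2d1 was 5.29, me1 4.18, tubgcp4 3.97, rnf111 3.17, wfs1b 1.57, pcdh17 1.27 and gip -0.58. Without the top cells gip was -0.05 and wfs1b 0.87. Leaving out a row, the ratio ran from -3.38 to 1.098 for efna5a and from -2.99 to 0.61 for slc16a12b (highest without row A), from -3.87 to 1.74 for me1, -2.89 to 1.26 for wfs1b, -3.48 to 1.23 for inhbab and -3.23 to 0.12 for trpc1 (highest without row B), from -0.55 to 4.58 for ela2l and -0.97 to 4.45 for prss59.2 (lowest without row F), and from -0.18 to 6.89 for gip (lowest without row G). None of these is among the 30 genes named first. No paired analysis was possible because the labels name no animals, so whether the gates share fish is not known, and no test was made. Depth limits low genes: 1 read is 0.0797 CPM in the ins+ pool.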
